A study of Mus musculus with 12 samples.

Results

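Heat shock genes encode molecular chaperones, proteins that hold, fold or refold other proteins. The 10 heat shock genes Hspa1a, Hspa1b, Hspa8, Hspa5, Hspb1, Hspd1, Hspe1, Hsph1, Hsp90aa1 and Dnajb1 were taken by name from the 32245 gene symbols counted in the 4 gene expression libraries, and all 10 had at least 3 unique molecular identifiers (UMIs, counts of captured RNA molecules) in every library. They are described over all cells and within cell types gated by marker genes. In the arterial wall these chaperones are known from smooth muscle and endothelial cells as well as from the leukocytes that enter a plaque.

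When unfolded proteins build up, the transcription factor HSF1 is released from chaperones, binds heat shock elements in promoters and induces genes such as Hspa1a, Hspa1b, Dnajb1 and Hsph1. Other members are also made without such stress. Hspa8 is the constitutive HSP70 of the cytosol, and Hspa5 (BiP) is the HSP70 of the endoplasmic reticulum. Hspd1 and Hspe1 form the chaperonin of the mitochondrial matrix. The inducible genes are also known to respond to handling of tissue, including enzymatic dissociation.

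The study asked how methazolamide (MTZ), a carbonic anhydrase inhibitor used against glaucoma, acts on atherosclerosis in the aorta. Whole aortas were dissociated and profiled with droplet 5′ single-cell RNA sequencing, with 1 library per group made from 6 pooled aortas out of 18 mice per group. All groups were male C57BL/6J mice labelled ApoE-/-, a knockout of apolipoprotein E that raises plasma cholesterol, and were 8 weeks old at the start. The group labelled Healthy ate a normal diet and received saline. The atherosclerosis (AS) group ate a high-fat diet with 1% cholesterol and 10% fat for 24 weeks and received saline. Both MTZ groups ate the same high-fat diet. The MTZ-treated group received saline at first and MTZ at 25 mg/kg in the last 12 weeks. The MTZ-preventive group received MTZ at this dose through all 24 weeks. Saline and MTZ were given into the stomach every other day. The labels spell the drug methoxazolamide. With 1 pooled library per group there was no replicate, so no test between groups was possible: levels are counts per 1000000 UMIs (CPM) with exact Poisson 95% limits, ratios carry exact binomial 95% limits, and these limits cover counting error only.

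Several facts about the libraries touch what follows. After filtering, the libraries held 11121 (Healthy), 2160 (AS), 6796 (MTZ-treated) and 14186 (MTZ-preventive) cells and between 3791138 and 33026082 UMIs, and the AS library was the smallest by both measures. Apoe stood at 701 CPM in the library labelled Healthy against 11.3 (AS), 12.8 (MTZ-treated) and 8.75 CPM (MTZ-preventive), which goes against the ApoE-/- label of the first group. It is therefore called the library labelled Healthy, and every direction drawn against it rests on that label. Pairs of libraries shared 209 to 805 cell barcodes, 3.01% to 3.68% of the smaller library, and the sharing expected by chance was not computed. B cell gated cells were 24.7% of the cells labelled Healthy and 0.509% (AS), 0.750% (MTZ-treated) and 5.53% (MTZ-preventive) of the others, and T cell gated cells were 16.1%, 0.185%, 1.72% and 4.96%, so values over all cells mix the level in each cell type with the mix of types. A total over all cells cannot tell fewer cells of a type from less RNA per cell. Within the AS library 49.3% of cells passed no gate, against 25.4% to 38.7% in the others. Every marker of a gate was detected in each gate of at least 50 cells. Gates with fewer than 50 cells were not used, which leaves the endothelial, smooth muscle and fibroblast gates for comparisons with the AS library, the adipocyte gate for AS and MTZ-preventive alone, and the B and T cell gates for the other 3 libraries.

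The promoters are shown because heat shock elements are the sequences through which HSF1 acts, and because they show how alike the 2 inducible HSP70 genes are. RefSeq windows of the 250 bases before a transcription start (build mm10, GRCm38.p6) were matched by symbol for 8 of the 10 genes; Hspa8 and Hsp90aa1 were not matched. The letters searched were GAANNTTC and TTCNNGAA, 2 adjoining heat shock element units in either orientation, each of which reads the same on both strands. Hspa1a, Hspa1b, Hsph1, Hspb1, Hspd1 and Hspe1 held at least 1 such pair, against 14.5% of the 27025 genes with a RefSeq window of this length. A run of 3 or more units was found for Hspd1 and Hspe1 and for 0.514% of those genes. The endoplasmic reticulum stress element, CCAAT and CCACG with 9 bases between them on either strand, was found for Hspa5 and for 0.130% of those genes. A match is a description of letters and not a mapped binding site, and neither element was found in the 2 windows of Dnajb1. The windows below read 5′ to 3′ on the strand of the gene, with capitals marking the matched element.
Hspa1a, chr17:34972157-34972406, minus strand: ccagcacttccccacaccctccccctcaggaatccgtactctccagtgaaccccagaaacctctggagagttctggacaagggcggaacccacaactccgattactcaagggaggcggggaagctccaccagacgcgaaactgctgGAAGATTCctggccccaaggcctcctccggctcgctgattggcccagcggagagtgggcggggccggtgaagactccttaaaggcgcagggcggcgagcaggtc
Hspa1b, chr17:34959239-34959488, minus strand: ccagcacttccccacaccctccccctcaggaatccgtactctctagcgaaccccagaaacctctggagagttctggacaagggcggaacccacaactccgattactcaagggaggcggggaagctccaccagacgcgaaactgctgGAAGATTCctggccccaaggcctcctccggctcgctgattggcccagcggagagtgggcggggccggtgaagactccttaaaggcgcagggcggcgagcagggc
Hsph1, chr5:149636337-149636586, minus strand: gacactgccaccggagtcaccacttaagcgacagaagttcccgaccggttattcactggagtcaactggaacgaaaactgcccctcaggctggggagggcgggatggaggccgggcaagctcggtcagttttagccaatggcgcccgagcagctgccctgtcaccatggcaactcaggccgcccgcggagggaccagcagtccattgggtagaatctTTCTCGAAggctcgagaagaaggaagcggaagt
Hspb1, chr5:135887669-135887918, plus strand: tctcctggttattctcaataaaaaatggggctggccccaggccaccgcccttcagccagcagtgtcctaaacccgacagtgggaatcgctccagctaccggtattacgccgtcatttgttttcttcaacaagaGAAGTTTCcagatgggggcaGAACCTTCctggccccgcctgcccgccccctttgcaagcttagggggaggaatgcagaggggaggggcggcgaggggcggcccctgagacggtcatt
Hspe1, chr1:55087898-55088147, plus strand: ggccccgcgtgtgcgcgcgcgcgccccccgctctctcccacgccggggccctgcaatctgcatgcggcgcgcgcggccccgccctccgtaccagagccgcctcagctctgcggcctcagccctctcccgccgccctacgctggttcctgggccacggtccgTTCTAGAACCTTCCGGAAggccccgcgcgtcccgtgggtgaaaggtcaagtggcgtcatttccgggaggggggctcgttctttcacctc
Hspa5, chr2:34771840-34772089, plus strand: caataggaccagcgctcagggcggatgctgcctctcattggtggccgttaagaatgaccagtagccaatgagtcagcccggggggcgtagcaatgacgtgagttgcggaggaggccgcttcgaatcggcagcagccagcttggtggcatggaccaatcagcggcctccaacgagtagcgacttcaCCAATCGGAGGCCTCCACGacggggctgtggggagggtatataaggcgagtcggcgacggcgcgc
The Hspa1a and Hspa1b windows differed at 3 of 250 bases, C44T, T47C and T249G, with the Hspa1a base first and positions counted from 1 at the 5′ end of the window, and at 1 of the 50 bases after the start. Their heat shock pair lay at the same place, 104 to 97 bases before the start. Hsph1 held its pair at 33 to 26 bases before the start, the nearest to a start among the windows printed, and Hspb1 held pairs at 117 to 110 and 97 to 90 bases. The run of 4 units in the Hspe1 window, at 89 to 72 bases, is the same stretch of DNA as the run in 1 window of Hspd1, the neighbouring gene on the other strand, because these windows overlap by 215 bases.

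Hspa1a (ENSMUSG00000091971) and Hspa1b (ENSMUSG00000090877) encode the inducible HSP70, which binds unfolded proteins and uses ATP to release them. The genes are nearly identical, so reads can be lost or split between them and each gene's own value is uncertain. Their sum is the safer quantity. In all cells the sum was 1320.0 CPM in the Healthy-labelled library, 239 for AS, 510.1 for MTZ-treated and 573 for MTZ-preventive. AS was thus 5.52-fold (5.17 to 5.90) below the library labelled Healthy, and the MTZ-treated and MTZ-preventive libraries lay 2.13-fold (1.99 to 2.29) and 2.39-fold (2.24 to 2.56) above AS. All 3 comparisons use the AS library, and a value particular to it enters each of them.

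Within gates the endothelial and smooth muscle orders of the libraries were the same. Fibroblast gated cells differed only in the order of AS and MTZ-treated, whose limits overlapped. In smooth muscle gated cells, the contractile cells of the vessel wall, the sum was 987 CPM (959 to 1016) in the Healthy-labelled library, 266 (219 to 319) for AS, 714 (689 to 741) for MTZ-treated and 930.1 (907 to 954) for MTZ-preventive, and no limits overlapped. AS was 3.72-fold below the library labelled Healthy here, with log2 ratios of 1.43 (1.16 to 1.71) for MTZ-treated and 1.81 (1.54 to 2.09) for MTZ-preventive over AS. Endothelial gated cells, a type that lines vessels, had 679 (645 to 714), 238 (191 to 294), 572 (541 to 605) and 602 (574 to 631) CPM in the same order. The AS value was again the lowest, and the limits of the MTZ libraries overlapped each other. Fibroblast gated cells, whose place in the wall the gate does not give, had 545 (522 to 569), 188 (156 to 226), 168 (156 to 181) and 239.9 (229 to 252) CPM. As in the smooth muscle and endothelial gates, AS and both MTZ libraries all lay below the library labelled Healthy. Unlike there, the limits of AS and MTZ-treated overlapped. The log2 ratio of MTZ-treated to AS was 1.26 (0.95 to 1.59) in endothelial gated cells and −0.17 (−0.45 to 0.13) in fibroblast gated cells, with limits apart.

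Markers of other cell types also differed among the libraries within these gates. The 8 adipocyte markers summed to 4990.0 CPM in the AS smooth muscle gate against 120.2, 81.2 and 2666 CPM in the Healthy-labelled, MTZ-treated and MTZ-preventive ones, while the gate's own 8 markers summed to 29667 CPM in AS and 45968 to 52029.7 CPM in the others. In the endothelial gate the adipocyte markers summed to 2633 CPM in AS and 43.1 to 625 CPM elsewhere, and in the fibroblast gate to 1149 CPM in AS and 107 to 803 CPM elsewhere. Neutrophil markers summed to 2916 CPM in the AS smooth muscle gate against 8.82 to 72.1 CPM in the others, to 574 against 16.8 to 39.5 CPM in the endothelial gate and to 670.1 against 31.0 to 58.7 CPM in the fibroblast gate. Macrophage markers in the smooth muscle gate summed to 376 CPM in AS and 18.6 to 71.1 CPM elsewhere. The part of foreign RNA in the levels was not tested. The AS adipocyte gate itself had 173 CPM (139.8 to 211) of Hspa1a and Hspa1b together, and the MTZ-preventive one 242 (226 to 259).

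**Figure D1:**
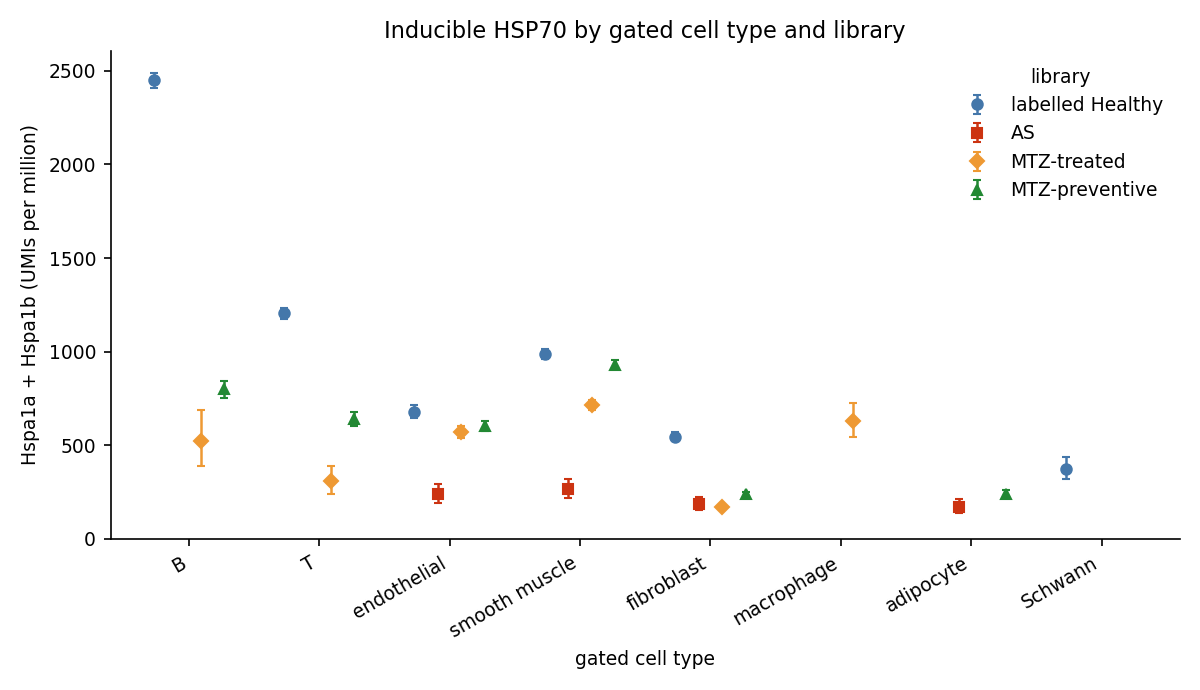
Hspa1a plus Hspa1b in CPM (vertical axis) by gated cell type and library, with exact Poisson 95% limits as bars. The B cell gate of the library labelled Healthy stands highest at 2449, and the AS points of the endothelial and smooth muscle gates lie below the other libraries at 238 and 266.

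The highest level of inducible HSP70 was in lymphocytes of the library labelled Healthy. Its B cell gate had 2449 CPM (2409 to 2489.6) and its T cell gate 1205 (1176 to 1234), followed by the smooth muscle, endothelial, fibroblast and Schwann cell gates, the last at 376 (321 to 437), with no neighbours in this order overlapping. The highest gate was 6.51-fold above the lowest. In the MTZ-preventive library the order was another one: smooth muscle led, then B cells at 798 CPM (754 to 844), T cells at 640.0 (604 to 678), endothelial cells, adipocytes and fibroblasts, with T and endothelial cells overlapping, as did adipocytes and fibroblasts. The span was 3.88-fold. The AS library spanned 1.54-fold over its 4 gates, from smooth muscle through endothelial and fibroblast to adipocyte gated cells, with each neighbour overlapping. B, T and Schwann cell gates of AS held fewer than 50 cells, so its span is not comparable with those over 6 gates. B and T gated cells of the MTZ-treated library, 51 and 117 cells, had 522 CPM (387 to 688) and 308 (239 to 390.4). Against the library labelled Healthy, the B cell level was 4.70-fold lower (3.56 to 6.33) in MTZ-treated and 3.07-fold lower (2.89 to 3.25) in MTZ-preventive, and the T cell level 3.91-fold (3.08 to 5.04) and 1.88-fold (1.77 to 2.01) lower. Macrophage gated cells reached 50 cells in the MTZ-treated library alone, at 631 CPM (545 to 727).

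The 2 genes did not contribute alike in each cell type. Hspa1a gave 63.4% (62.0 to 64.8, exact Clopper-Pearson 95% limits) of the summed UMIs in the Healthy-labelled smooth muscle gate, 54.1% (53.2 to 54.9) in the B cell gate and 45.4% (44.2 to 46.5) in the T cell gate. Since the counter may split reads of near-identical genes, these shares describe the deposited counts and not the transcripts. T gated cells were below 50% in the MTZ-treated and MTZ-preventive libraries too, at 44.1% (32.1 to 56.7) and 46.6% (43.7 to 49.5).

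In smooth muscle gated cells, libraries with a higher level had both more cells with the RNA and more molecules per positive cell. With every cell thinned to 1000 UMIs, so that cells of different depth can be compared, an Hspa1a or Hspa1b UMI was found in 52.5% of cells of the library labelled Healthy, 431 of the 2160 AS cells, 33.1% of MTZ-treated and 33.5% of MTZ-preventive cells. Unthinned, these shares were 68.0%, 27.8%, 45.1% and 48.3%, and the median cell held 1921, 1298, 1544 and 1654 UMIs. Smooth muscle gated cells were positive in 58.6%, 24.8%, 41.3% and 43.4% of cases after thinning, fibroblast gated cells in 41.1%, 11.6%, 17.3% and 22.2%, and endothelial gated cells in 33.5%, 21.1%, 35.5% and 32.4%. AS was lowest in each of the 3 gates. In fibroblast gated cells the CPM sums had the other order, at 188 in AS and 168 in MTZ-treated with overlapping limits. Why these measures differ there was not tested. No cell type is known to lack these genes, so the share that free RNA adds could not be read from a negative gate. Among positive smooth muscle gated cells the mean was 1.95, 1.16, 1.86 and 1.90 UMIs, lowest in AS as well.

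**Figure D2:**
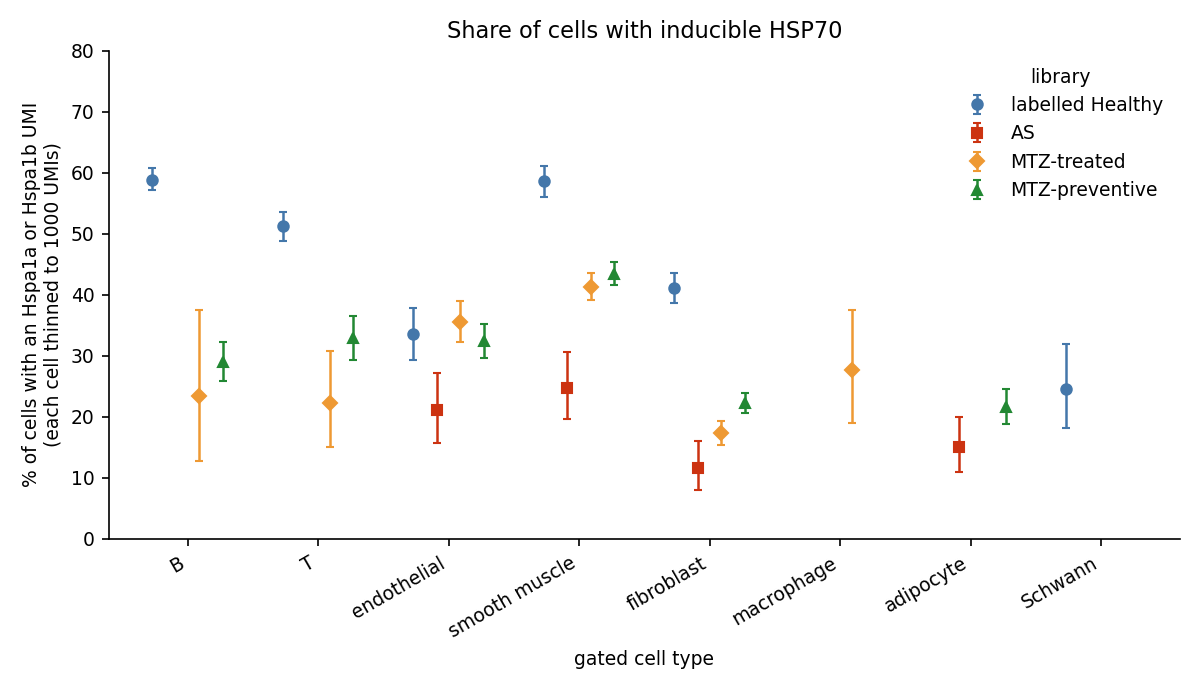
Percent of cells with at least 1 Hspa1a or Hspa1b UMI after thinning each cell to 1000 UMIs (vertical axis), by gated cell type and library, with exact 95% limits as bars. Smooth muscle and B gated cells of the library labelled Healthy were near each other at 58.6% and 58.9%, and the AS fibroblast gate was lowest of the fibroblast gates at 11.6%.

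B cells carried the RNA unevenly. Positive B gated cells of the library labelled Healthy held a mean of 4.47 thinned UMIs, against 2.39 in its T gated cells, and the highest cell of the library held 52. The top 10% of its B gated cells held 50.4% of the B cell gate's Hspa1a and Hspa1b UMIs. In its smooth muscle gate the top 10% held 38.4%, and over all its cells 53.3%, so such unevenness was not particular to B cells. In the MTZ-preventive B cell gate, where 29.0% of cells were positive, the top 10% held 72.9%. Fewer positive cells raise this share by themselves, so it is not directly comparable between the B cell gates. The pair was often found in the same cells: after thinning, Hspa1b was seen in 64.7% of Healthy-labelled B gated cells with an Hspa1a UMI and in 26.5% of those without, and in 45.5% and 11.6% in MTZ-preventive. Over all cells these shares were 50.4% and 25.3% in the library labelled Healthy, 30.9% and 13.4% in MTZ-treated and 30.1% and 14.5% in MTZ-preventive. In AS, over all cells, they were 10.4% (7.11 to 14.5) and 7.59% (6.43 to 8.88), with overlapping limits. Dnajb1 went with Hspa1a less closely over all cells of the library labelled Healthy, at 46.9% of cells with and 37.7% of cells without an Hspa1a UMI.

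Dnajb1 (ENSMUSG00000005483) encodes a J-domain protein that delivers unfolded clients to HSP70. It had 593 CPM in the Healthy-labelled library, 377 for AS, 415 for MTZ-treated and 456 for MTZ-preventive over all cells. Unlike Hspa1a and Hspa1b it was highest in T gated cells, at 952 (926 to 977), 611 (513 to 724) and 841 (799 to 884) CPM in the library labelled Healthy, MTZ-treated and MTZ-preventive, with the endothelial gate of MTZ-treated overlapping. In smooth muscle gated cells the 4 libraries lay between 393 and 442 CPM, and the log2 ratio of AS to the Healthy-labelled library was −0.11 (−0.34 to 0.11), where that of Hspa1a plus Hspa1b was −1.89 (−2.18 to −1.62). So within 1 gate and 1 pair of libraries, HSP70 and its partner J-protein had ratios whose limits lay apart. In fibroblast gated cells Dnajb1 had 369, 222, 238 and 319 CPM and a log2 ratio of −0.73 (−0.99 to −0.48) in AS.

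Hsph1 (ENSMUSG00000029657) encodes HSP110, which exchanges the nucleotide of HSP70. It had 121 CPM in the Healthy-labelled library, 28.0 for AS, 50.5 for MTZ-treated and 64.9 for MTZ-preventive. AS held only 2 UMIs in the endothelial gate (5.42 CPM) and 6 in the smooth muscle gate (14.1 CPM). The library labelled Healthy had 61.7 and 89.1 CPM there, MTZ-treated 48.7 and 62.5, and MTZ-preventive 51.9 and 97.6. The log2 ratios of AS to the Healthy-labelled library were −3.51 (−6.57 to −1.63) and −2.66 (−4.11 to −1.52) in these gates, wide because of the few AS molecules. The median over the 3 gates, −2.66, became −1.52 with gates of 2 markers and a lead of 1. With all deposited barcodes the gate medians of MTZ-treated and MTZ-preventive over AS moved from 2.15 to 0.52 and from 2.02 to 0.43. In fibroblast gated cells the ratio was −0.47 (−1.14 to 0.14). T gated cells had the most Hsph1 in each library that could be gated, at 185, 77.0 and 113 CPM, overlapping smooth muscle gated cells in both MTZ libraries.

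Hsp90aa1 (ENSMUSG00000021270) encodes the inducible HSP90 of the cytosol, which holds kinases and steroid receptors in a form ready for use. B gated cells had 3982 CPM in the library labelled Healthy, 2263 in MTZ-treated and 2769 in MTZ-preventive, above T gated cells at 2294, 1694 and 2189. Smooth muscle gated cells had 1103, 628, 840.4 and 1033 CPM from Healthy-labelled to MTZ-preventive, endothelial gated cells 661, 458, 731 and 752, and fibroblast gated cells 747, 417, 442 and 623. AS was lowest in all 3 gates, with log2 ratios to the library labelled Healthy of −0.53, −0.81 and −0.84 in endothelial, smooth muscle and fibroblast gated cells. Over all cells the ratio was −2.01 (−2.08 to −1.95), larger in size than in any of the 3 gates, and it was −0.73 when the gates were weighted equally. MTZ-preventive exceeded AS by 0.72, 0.72, 0.58 and 0.73 in the endothelial, smooth muscle, fibroblast and adipocyte gates on the log2 scale, a narrow range over 4 cell types.

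Hspb1 (ENSMUSG00000004951) encodes HSP27, a small heat shock protein that binds actin and unfolded proteins without using ATP and is abundant in muscle. It had the widest span between gates of the 10 genes in the library labelled Healthy, and it was the one member past 2-fold higher in AS over all cells. It had 833, 1793, 1985 and 2101 CPM in the library labelled Healthy, AS, MTZ-treated and MTZ-preventive. Smooth muscle gated cells led in every library, at 3086, 3889, 3769 and 4621 CPM. Endothelial gated cells followed in the Healthy-labelled, MTZ-treated and MTZ-preventive libraries, at 1493, 1563 and 2211 CPM. In AS, adipocyte and endothelial gated cells followed at 1841 and 1829 CPM, with overlapping limits. Lymphocytes had the least: 25.8 CPM in B and 15.7 in T gated cells of the library labelled Healthy, so the highest gate was 197-fold above the lowest. That span was 139-fold in MTZ-treated and 69.2-fold in MTZ-preventive.

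The difference of Hspb1 over all cells was larger than in most gates. The log2 ratio of AS to the Healthy-labelled library was 1.11 (1.07 to 1.14) over all cells, but 0.29 (0.17 to 0.41) in endothelial and 0.33 (0.26 to 0.41) in smooth muscle gated cells, and leaving out B and T gated cells brought it from 1.11 to 0.38. Fibroblast gated cells stood apart, at 476 CPM (455 to 498) in the Healthy-labelled library, 949 (874 to 1029) for AS, 976 (947 to 1005) for MTZ-treated and 1627 (1598 to 1657) for MTZ-preventive. The AS to Healthy-labelled ratio there was 0.99 (0.86 to 1.13) and the MTZ-preventive to AS ratio 0.78 (0.66 to 0.90), while in adipocyte gated cells, at 1841 and 1837 CPM in AS and MTZ-preventive, the limits of the log2 ratio were −0.10 to 0.09. The low lymphocyte values were 4.02-fold (3.20 to 5.06) and 4.24-fold (3.20 to 5.64) higher in the B and T cell gates of MTZ-preventive than of the library labelled Healthy. Smooth muscle markers in these gates summed to 361 against 194 CPM in B and 287 against 135 CPM in T gated cells. Adipocyte markers summed to 197 against 4.16 CPM in B and 176 against 4.42 CPM in T gated cells, and the part of either marker set in these values was not tested. Hspb1 was found in 73.8% to 87.3% of smooth muscle gated cells and in 2.07% of B gated cells labelled Healthy after thinning.

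**Figure D3:**
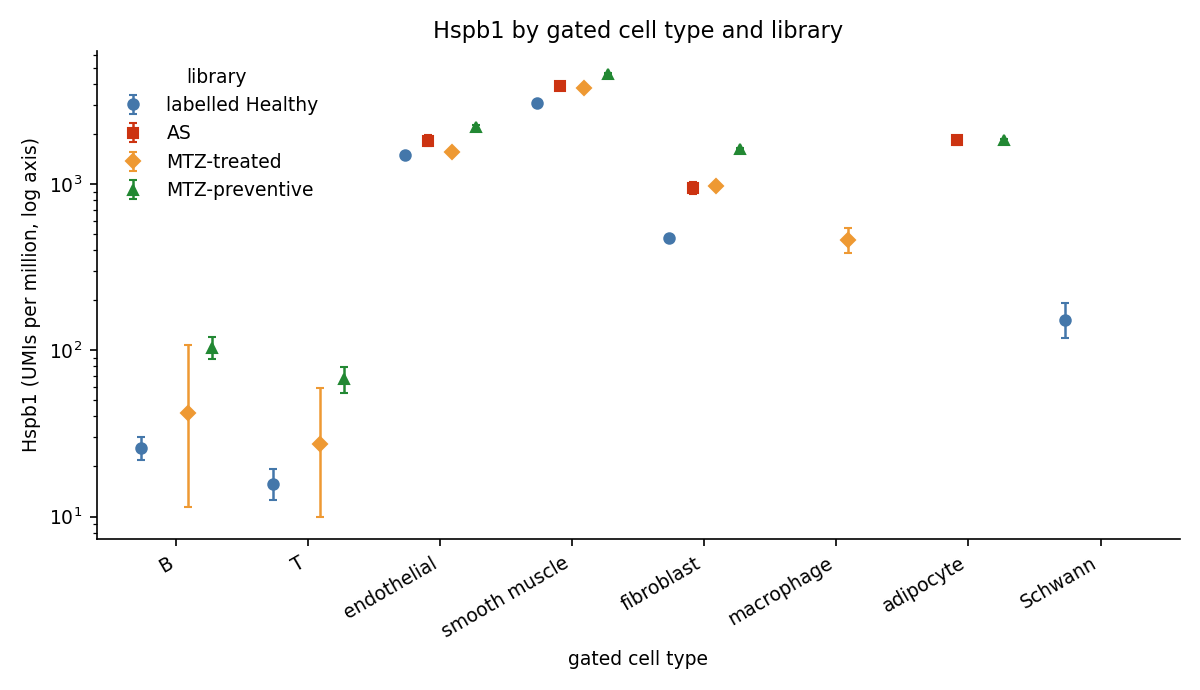
Hspb1 in CPM on a log axis (vertical) by gated cell type and library, with exact Poisson 95% limits as bars. Smooth muscle gated cells lie at 3086 to 4621 in the 4 libraries, and B and T gated cells between 15.7 and 104.

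Hspa8 (ENSMUSG00000015656), the constitutive HSP70 that also strips clathrin from vesicles and takes part in chaperone-mediated autophagy, had 3951 CPM in the Healthy-labelled library, 1410.1 for AS, 1615 for MTZ-treated and 3184 for MTZ-preventive. Its pattern set the MTZ libraries apart from each other. Smooth muscle gated cells had 3079, 1580.2, 1733 and 3081 CPM, endothelial gated cells 2495, 1330.2, 1767 and 2704, and fibroblast gated cells 1887, 1142, 1076 and 2229. Thus MTZ-treated stayed near AS in smooth muscle and fibroblast gated cells, with log2 ratios of 0.13 (0.02 to 0.25) and −0.09 (−0.20 to 0.03), while MTZ-preventive exceeded AS by 1.02 (0.89 to 1.16), 0.96 (0.85 to 1.08) and 0.96 (0.86 to 1.08) in endothelial, smooth muscle and fibroblast gated cells. The adipocyte gate gave 0.79 (0.68 to 0.89). Lymphocytes showed a similar order: T gated cells had 5435, 2762 and 6229 CPM in the library labelled Healthy, MTZ-treated and MTZ-preventive, and B gated cells 5526, 2681 and 4974.

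Hspd1 (ENSMUSG00000025980) and Hspe1 (ENSMUSG00000073676) encode HSP60 and HSP10, which form the barrel and lid of the mitochondrial chaperonin. Hspd1 was low and nearly level over all cells, at 114, 97.6, 93.1 and 119.9 CPM. In smooth muscle gated cells it had 104, 70.5, 117 and 125 CPM and in fibroblast gated cells 75.2, 105, 69.8 and 94.8 CPM, so AS was lowest in the first gate and highest in the second. The AS values rest on 30 and 65 UMIs, and their limits overlapped those of the library labelled Healthy in both gates. The limits of the log2 ratios of AS to that library, −1.14 to −0.02 and 0.07 to 0.87, nevertheless left out 0. Hspe1 had 378, 251, 316 and 308 CPM over all cells. Its largest gate ratio in the treatment comparisons was in smooth muscle gated cells, at 195 CPM in AS and 373 in MTZ-treated, a log2 ratio of 0.93 (0.61 to 1.27). In fibroblast gated cells Hspe1 lay between 241 and 299 CPM in the 4 libraries. Adipocyte gated cells had 160.0 and 160.4 CPM of Hspd1 and 489 and 479 CPM of Hspe1 in AS and MTZ-preventive, and the limits of the log2 ratios, −0.32 to 0.34 and −0.22 to 0.16, included 0.

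Hspa5 (ENSMUSG00000026864), whose protein BiP holds new secreted proteins and keeps the sensors of the unfolded protein response at rest, had 1300.5, 681, 696 and 1032 CPM. T gated cells were highest, at 1949.8, 1476 and 1883 CPM in the library labelled Healthy, MTZ-treated and MTZ-preventive, and B gated cells followed at 1656, 1241 and 1493. Its log2 ratios of AS to the Healthy-labelled library were modest, at −0.53 (−0.73 to −0.34), −0.42 (−0.61 to −0.24) and −0.27 (−0.43 to −0.12) in endothelial, smooth muscle and fibroblast gated cells. No gate reached 2-fold. In fibroblast gated cells MTZ-treated was the lowest library at 521 CPM, with a log2 ratio to AS of −0.28 (−0.43 to −0.12), whereas MTZ-preventive gave 0.31 (0.16 to 0.46).

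**Figure D4:**
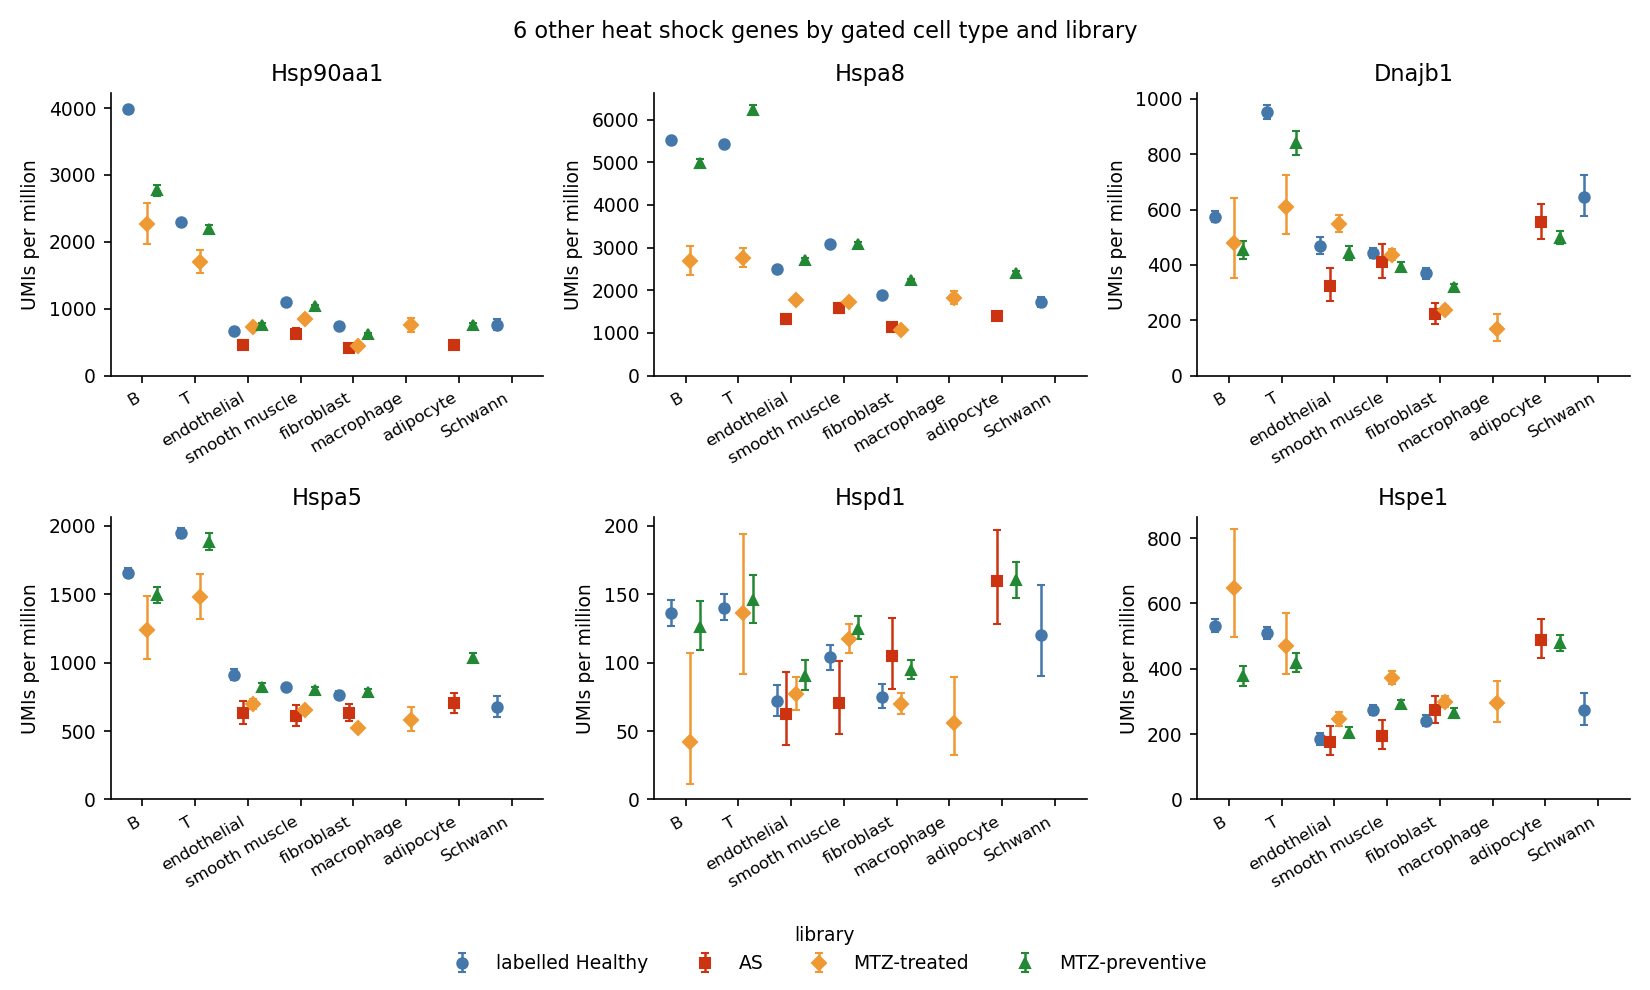
CPM (vertical axes, each from 0) of 6 other heat shock genes by gated cell type and library, with exact Poisson 95% limits as bars. Hspa8 shows MTZ-treated at 1733 and MTZ-preventive at 3081 in smooth muscle gated cells, and Dnajb1 is highest in T gated cells, at 952 in the library labelled Healthy.

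As a group the 10 genes took 1.06% of all UMIs in the Healthy-labelled library, 0.537% for AS, 0.643% for MTZ-treated and 0.897% for MTZ-preventive. Within smooth muscle gated cells these shares were 0.998%, 0.766%, 0.870% and 1.14%, within endothelial gated cells 0.703%, 0.506%, 0.625% and 0.788%, and within fibroblast gated cells 0.516%, 0.397%, 0.382% and 0.622%. AS was lowest in the first 2 gates, and in the third the limits of AS and MTZ-treated overlapped. B gated cells of the library labelled Healthy gave the highest share, at 1.50%.

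The members were then counted past 2-fold among genes that reached 100 CPM in 1 library or both, a rule of size and not a test. Over all cells, AS against the library labelled Healthy put 1 of the 10 genes past 2-fold higher (Hspb1) and 5 lower (Hspa1a, Hspa1b, Hsph1, Hsp90aa1 and Hspa8), where 14.8% of 1543 genes passed higher and 13.6% lower. The median log2 ratio was −1.21 for the members and 0.10 for all of those genes. In the 3 gates, 26 of 30 pairs of member and gate had at least 100 CPM, of which 0 passed 2-fold higher and 6 lower, against a background of 5.90% and 8.93% of 4759 pairs, with medians of −0.54 and −0.01. The 6 were Hspa1a and Hspa1b in each gate, and their sum passed 2-fold lower in all 3 gates. Reads can be split between these near-identical genes, so counts that hold both, here and below, are not of separate signals. Hsp90aa1 and Hspa8, past 2-fold lower over all cells, did not pass in any of the 3 gates, and Hsph1 lay under 100 CPM in each of them and was not counted there.

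For MTZ-treated against AS, 8 members had at least 100 CPM over all cells, and 1 (Hspa1b) passed 2-fold higher and 0 lower, where 6.08% of 1529 genes passed higher and 6.93% lower. Their median of 0.26 and the median of 0.22 over all genes lay near each other, and 1 gene in 8 is near the background. In gates, 4 of the 25 pairs counted out of 30 passed higher, Hspa1a and Hspa1b in endothelial and smooth muscle gated cells, and 0 lower, against 3.59% and 5.56% of 4565 pairs. The sum of Hspa1a and Hspa1b passed 2-fold higher in 2 gates. The medians were 0.13 for the members and 0.13 for all genes.

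For MTZ-preventive against AS, 4 of 9 members counted passed 2-fold higher over all cells (Hspa1a, Hspa1b, Hsp90aa1 and Hspa8) and 0 lower, where 4.24% of 1439 genes passed higher and 3.75% lower, with medians of 0.60 and 0.01. In the 4 gates, 4 of 34 pairs counted out of 40 passed higher and 0 lower, against 4.22% and 3.49% of 5877 pairs, with medians of 0.48 and 0.02. The 4 were Hspa1a in endothelial and smooth muscle, Hspa1b in smooth muscle and Hspa8 in endothelial gated cells.

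**Figure D5:**
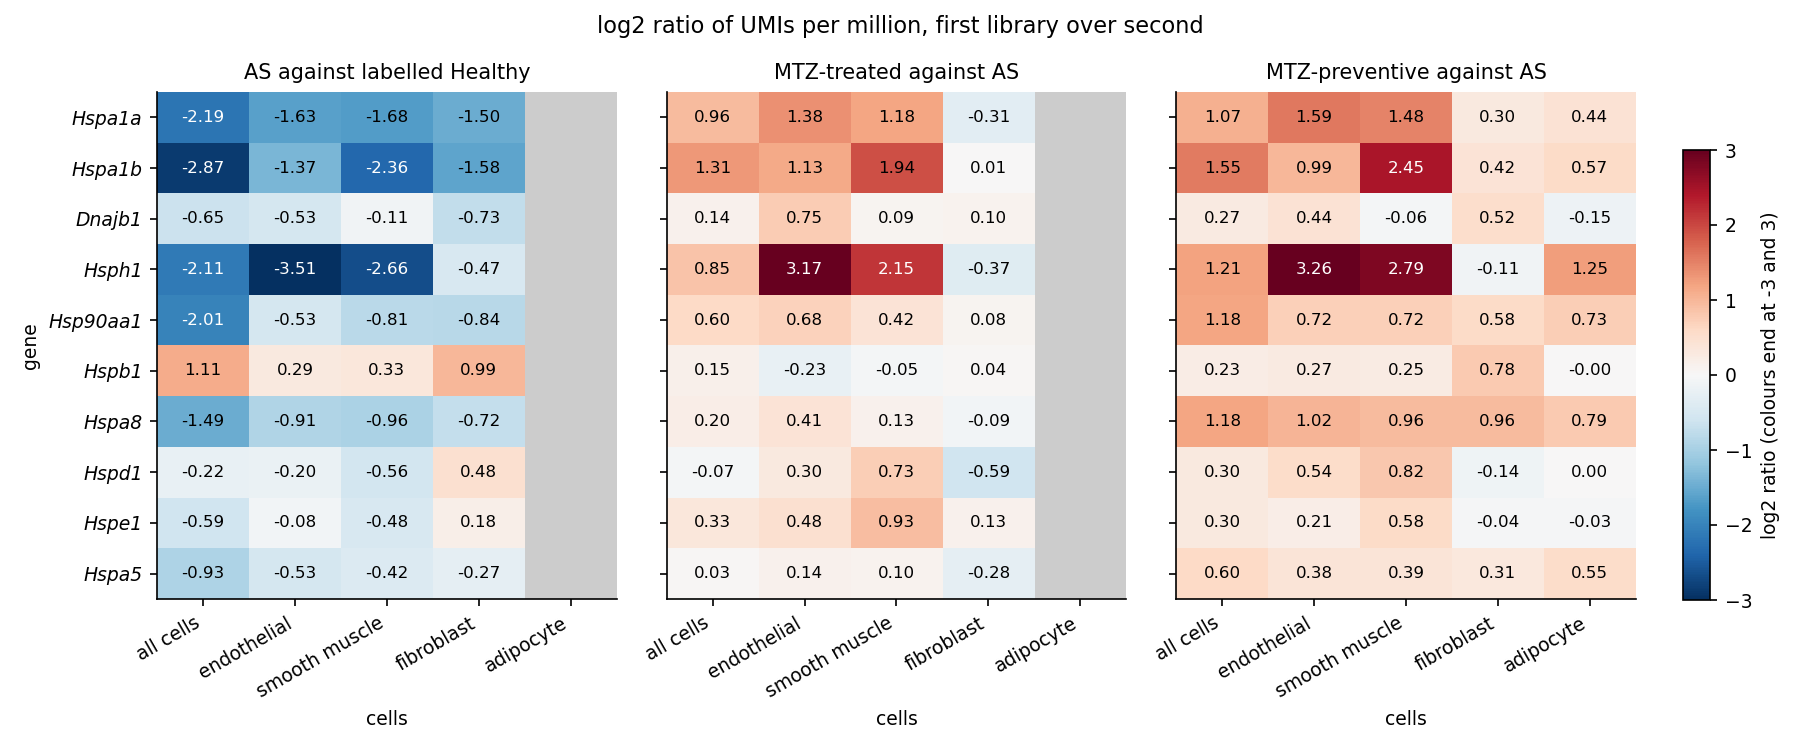
Log2 ratio of CPM (colour) for the heat shock genes (rows) over all cells and in each gate (columns), for AS over the Healthy-labelled library and each MTZ library over AS. Hspa1a is at −1.68 in smooth muscle gated cells for AS, then at 1.18 and 1.48 for the MTZ libraries. In fibroblast gated cells its last 2 values are −0.31 and 0.30.

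The other genes of the chaperone network were taken from lists by function. Each list count below stands against the shares of all genes past 2-fold over all cells. These were 14.8% higher and 13.6% lower for AS, 6.08% and 6.93% for MTZ-treated, and 4.24% and 3.75% for MTZ-preventive. Hsf1, which encodes the heat shock factor itself, had 40.4, 19.0, 21.2 and 39.6 CPM in the library labelled Healthy, AS, MTZ-treated and MTZ-preventive, and neither of the 2 heat shock factors listed reached 100 CPM. Of 7 other cytosolic HSP70, HSP90 and HSP110 genes, 2 reached 100 CPM in each comparison: for AS 0 were higher and 1 lower past 2-fold, and for both MTZ libraries none were. That gene was Hsp90ab1, the constitutive HSP90, at 4224, 1456, 2423 and 2785 CPM, whose median over the gates was −0.68 for AS, 0.76 for MTZ-treated and 0.56 for MTZ-preventive on the log2 scale. Of 9 J-domain genes 2 reached 100 CPM and none passed 2-fold in any comparison. Dnaja1, a J-protein partner of HSP70, had median log2 ratios over gates of −0.43, 0.75 and 0.51. The TRiC chaperonin, which folds actin and tubulin, had 5, 1 and 5 of its 8 genes at 100 CPM and none past 2-fold, with medians of −0.59, 0.10 and 0.60. Its subunits Cct2, Cct4 and Cct5 were at 0.69, 0.78 and 0.73 over the gates for MTZ-preventive against AS.

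Of 15 co-chaperone and exchange factor genes, 6, 7 and 6 reached 100 CPM in the 3 comparisons, and 2 were past 2-fold higher in AS than in the library labelled Healthy, where 14.8% of all genes were, and 0 lower. Others were lower in AS by less, such as Cdc37, which loads kinases onto HSP90, at 87.6 against 131 CPM. In MTZ-treated 1 was past 2-fold lower than in AS and 0 higher, and none passed for MTZ-preventive. Bag3, an exchange factor that links HSP70 to autophagy and is itself an HSF1 target, stood at 258 CPM in AS and 121 in the library labelled Healthy, a log2 ratio of 1.09, opposite in direction to Hspa1a and Hspa1b, but its median over the gates was 0.17. The other was Fkbp5, a co-chaperone of HSP90 at steroid receptors and a known glucocorticoid target, named after its values were seen. It had 20.5, 116, 27.8 and 91.8 CPM, with medians over the gates of 2.39 for AS, −2.28 for MTZ-treated and −0.14 for MTZ-preventive, and it was the gene lower in MTZ-treated. Among 5 other small heat shock genes 2 reached 100 CPM, with 1 higher past 2-fold in AS, none lower, and none in the MTZ comparisons. That gene, Hspb8, the partner of Bag3, had 48.9, 134, 99.6 and 148 CPM. Of 8 other mitochondrial chaperone and protease genes 2 reached 100 CPM, none passed 2-fold, and the medians were 0.49, −0.56 and 0.05.

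For the endoplasmic reticulum, 11, 12 and 12 of 18 other chaperone and unfolded protein response genes reached 100 CPM. In AS 1 was higher past 2-fold and 0 lower, where 14.8% and 13.6% of all genes were. In MTZ-treated 1 was higher and 1 lower, where 6.08% and 6.93% of all genes were, and in MTZ-preventive none were. Xbp1, a transcription factor of the unfolded protein response, had 87.0, 317, 110.4 and 254 CPM, with medians over gates of 0.89 for AS and −1.27 for MTZ-treated. These counts are of Xbp1 in AS and MTZ-treated and, as the gene higher in MTZ-treated, Serpinh1, the collagen chaperone HSP47. Serpinh1 had 556, 324, 691 and 442 CPM and a median over gates of −1.34 for AS. Hspa5 and Xbp1 thus had AS ratios of opposite sign, but the list itself was mixed. Of its 11 genes counted for AS, 5 were above 0 over all cells, with a median log2 ratio of −0.01. Its median over the gates was −0.45 for AS. The 12 immediate early genes, which like the inducible heat shock genes respond to dissociation, all reached 100 CPM. In AS 1 was higher (Ier3) and 1 lower (Junb) past 2-fold, against the same 14.8% and 13.6% of all genes. None passed in the MTZ comparisons. The medians over all cells were −0.05, −0.02 and 0.31, with 4, 6 and 9 of the 12 genes above 0. Over the gates the list medians were −0.34, 0.01 and 0.28. Fos was at −0.75, 0.35 and 0.67 and Egr1 at −0.59 (AS) and 0.70 (MTZ-preventive) over the gates. Ier3 went the other way in AS over all cells, at 1386 CPM against 500.4 in the library labelled Healthy. So did Atf3, at 1184 against 656 CPM. The part of dissociation in either set was not tested.

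Genes with the most similar pattern were found by Pearson correlation of log2(CPM + 10) over the 22 pairs of gate and library with at least 50 cells, among 3599 genes. These points share libraries and gates and differ in depth, so r is given as a description. The 10 heat shock genes themselves were left out of the ranking. For Hspa1a plus Hspa1b the nearest other genes were Ddx5 (0.797), Ppp1r10 (0.781), Wsb1 (0.768), Fchsd2 (0.766) and Ppp1r15a (0.763). With the mean of each gate removed, which leaves 20 pairs and the differences among libraries, they were Satb1 (0.906), Tob2 (0.886), Hsp90ab1 (0.877), Kdm6b (0.875) and Zfp318 (0.872). Among the members, Hsph1 was at 0.777 over all pairs and 0.907 with the gate means removed, Hsp90aa1 at 0.740 and 0.892, and Dnajb1 at 0.375 and 0.724. Hspa8 and Hspa5 reached similar values in part, with Hspa8 at 0.758 and 0.771 and Hspa5 at 0.542 and 0.773. Hspd1 was at 0.140 and 0.536, Hspe1 at 0.215 and 0.209, and Hspb1 at −0.357 and −0.418. Hspb1 followed cell type more closely, with Rras (0.954), Iscu (0.940), Rbpms (0.940), Gng12 (0.938) and Tns2 (0.934) nearest, and Eif5a (0.923), Cebpd (0.817), Vdac2 (0.816), Gapdh (0.806) and Hspb8 (0.795) once the gate means were removed. The genes nearest to Hspa5 were Pabpc1 (0.961), Vps37b (0.961), Rpl13a (0.960), Snhg12 and Tuba4a (0.959), and with gate means removed Skil (0.944), Ddx5 (0.926) and Sfpq (0.921) were among the nearest. For Hspd1 they were Ggnbp2 (0.741), Atp5a1 (0.730), Alkbh5 (0.727), Arid5a (0.723) and Chchd3 (0.723), and after removal Cops6 (0.896), Srrm1 (0.889), Rab10 (0.883), Eri3 (0.876) and Gna11 (0.866).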

How the data were processed

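The authors counted UMIs per gene and cell barcode with Cell Ranger 5.0.0 against mm10, per the submitters' processing notes, and the deposited values are these raw counts for 32285 gene lines. Lines of 38 repeated symbols were summed, which left 32245 symbols. Cells were kept with over 200 genes, over 1000 UMIs, log10 genes over log10 UMIs above 0.7, under 10% mitochondrial and under 5% red blood cell UMIs. Doublets were scored against 2 simulated doublets per cell (2000 variable genes, 30 components) and the top 0.8% per 1000 cells of a library were removed. A cell was gated to a class when at least 3 of the 8 markers of that class were detected with a lead of 2 over each of the 8 other classes, so the gates are rebuilt names and not the authors' annotation.

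UMIs were summed per gate and library and divided by the total of those cells to give CPM. Limits were exact Poisson for a level, exact conditional binomial for a ratio and Clopper-Pearson for a share, at 95%, and cover counting error only. Counts under 3 were set to 3 for the 2-fold count. A UMI count of a 5′ library carries no length, so levels were not compared between genes. Heat shock genes were all named, as were Apoe, Hsf1, the 3 genes per list with the largest absolute median log2 ratio over gates, and the 5 genes most alike in pattern, some of which are not reported here. Other genes named from lists were chosen after their values were seen. The members, lists and gates were chosen with earlier results of these data known. The scripts were tested on simulated data. Alternatives changed the cell filter, gate rule, scaling, CPM minimum, doublet removal and weighting of cells or gates. The B and T cell receptor libraries were not used here. Tables were handled in Python 3.11.15 with pandas 2.3.3 and numpy 2.4.6, and the components also came from numpy. Limits came from scipy 1.17.1, the nearest neighbours of the doublet score from scikit-learn 1.9.0 and plots from matplotlib 3.10.9. TMM factors alone came from edgeR 4.0.16 in R 4.3.3.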

Additional observations from a re-analysis of the deposited data

Results flagged for a closer look

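Hspd1, the mitochondrial HSP60, had ratios of opposite sign in different gates under the same comparison. For AS against the library labelled Healthy the log2 ratio was 0.48 (0.07 to 0.87) in fibroblast gated cells and −0.56 (−1.14 to −0.02) in smooth muscle gated cells. For MTZ-treated against AS it was 0.73 (0.20 to 1.32) in smooth muscle gated cells and −0.59 (−0.98 to −0.18) in fibroblast gated cells. Both comparisons share the AS library, which held 65 and 30 Hspd1 UMIs in the fibroblast and smooth muscle gates, so they are not separate evidence. With 1 library per group the difference between the gates was not tested.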

How the results depend on the processing

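With 1 library per group, the values rest on single pools, the AS gates hold 209 to 267 cells, and counting limits leave out variation between animals, which is unknown. No paired analysis was possible because each group has 1 gene expression library. Across 14 alternatives, 606 of 627 log2 ratios had the sign of the value reported. Leaving out B and T gated cells was chosen after seeing the data. Of the 627 ratios, 486 lay within the counting limits of the value reported. Of the counts of genes past 2-fold, 114 of 138 were within 1.5 times of the value reported. The 24 counts beyond that were as follows. For AS against the library labelled Healthy in gates, higher genes were 1 in place of 0 with a looser cell filter, all deposited barcodes, a gate of 2 markers with a lead of 1 or 4 with a lead of 3, TMM, median-of-ratios, and totals that leave out mitochondrial, ribosomal protein and hemoglobin genes, and lower pairs were 13 (looser filter), 11 (all barcodes) and 10 (mean over cells) in place of 6. Over all cells, higher genes were 0 in place of 1 with the reduced totals, gates weighted equally, or B and T gated cells left out, and lower genes were 3 in place of 5 with gates weighted equally. For MTZ-treated against AS, higher genes over all cells were 2 in place of 1 with the looser filter, all barcodes and the mean over cells, and 0 at a minimum of 300 CPM, where pairs in gates were 2 in place of 4. For MTZ-preventive against AS, higher pairs in gates were 12 (all barcodes), 7 (the reduced totals) and 7 (minimum of 20 CPM) in place of 4, lower pairs were 3 in place of 0 with all barcodes, and higher genes over all cells were 1 in place of 4 with gates weighted equally. Why the barcode and filter settings move these counts was not tested. Scaling moved the median of all genes for AS over all cells from 0.10 to −0.14 with the reduced totals, where the members' median was −1.37, and to −0.02 by median-of-ratios, where it was −1.19. For MTZ-treated it moved from 0.22 to 0.01 by median-of-ratios. With gates weighted equally, the AS ratio over all cells moved from −2.46 to −1.65 for Hspa1a plus Hspa1b and from −1.49 to −0.86 for Hspa8, and that of Hsph1 moved from 0.85 to 1.65 for MTZ-treated and from 1.21 to 1.80 for MTZ-preventive. The looser filter moved the gate median of Hspa1a plus Hspa1b in AS from −1.53 to −2.21.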
